A study of Rattus norvegicus with 4 samples.

Results

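The 9 genes described here belong to VEGF and angiopoietin signalling: the ligands Vegfa, Vegfb and Vegfc, the receptors Flt1, Kdr and Nrp1, the angiopoietins Angpt1 and Angpt2, and the angiopoietin receptor Tek. They were chosen by name, by taking each gene probe whose name in the scanner files was one of the 9, which gave 9 of 35561 gene names and 15 of 41012 gene probes. A filter on dim spots kept 13 of them, with at least 1 for each gene, among 29860 probes tested. The filter removed 1 of 3 Angpt2 probes and 1 of 2 Tek probes.

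The study examined endoglin, a co-receptor for TGF-beta and BMP ligands, in rat hepatic stellate cells, the pericytes of the liver sinusoid. Two-colour oligonucleotide arrays compared untreated cells (2 arrays) or cells transfected with an siRNA targeting endoglin (2 arrays) in Cy5 with cells transfected with a control siRNA in Cy3. In each group 1 array used cells of 1 animal and the other a pool of 3 animals, in both dyes. Untreated cells were not transfected, so their comparison with control siRNA cells includes the transfection itself. The labels leave out the strain, the animals' age, the time after transfection and the siRNA sequences. Dyes were not swapped, so a dye bias of a probe and a difference from control siRNA cells cannot be told apart, whereas a constant bias cancels between endoglin siRNA and untreated cells.

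VEGF-A signals mainly through the receptor tyrosine kinase VEGFR2 (Kdr), while VEGFR1 (Flt1) binds VEGF-A tightly with weak kinase activity and also binds VEGF-B. Neuropilin-1 (Nrp1) is a co-receptor, and VEGF-C is a ligand of VEGFR3 that after processing also binds VEGFR2. Angiopoietin-1 activates the receptor Tie2 (Tek), and angiopoietin-2 binds the same receptor and opposes angiopoietin-1 in many settings. In the liver these factors link stellate cells to the sinusoidal endothelium.

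Endoglin mRNA (Eng) stood at -3.08 and -1.72 on the log2 scale against control siRNA in endoglin siRNA cells (1 animal and pool) and at -0.36 and -0.42 in untreated cells. These signs follow the dyes named in the labels, and the deposited value table carries the opposite sign on both untreated arrays. The share of gene spots that Feature Extraction called well above background in Cy5 was 65.7% to 70.2% on 3 arrays and 93.3% on the array of pooled untreated cells. On both pooled arrays a few spots with background-subtracted signals below -100, 6 and 4 of them, disturbed the background fit. The fitted background mean was -775 (Cy5) and -102 (Cy3) on the untreated pool and -486 and -416 on the endoglin siRNA pool, against -13.7 to -9.30 on the arrays of 1 animal. Without the 10 spots it was -17.0 to -0.05 on the pools. The ratios of the pooled arrays depend on these spots, so the value without the 10 spots is also given where it changes a member's call, and for several others. With 2 arrays a group, precision is limited by their number throughout. Each SE is limma's moderated one, from the spread of all 4 arrays drawn towards that of all tested probes. Where the 2 arrays of a group lie far apart, as for Kdr, it is smaller than their own spread would give.

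In the designed fit, which kept all spots, a probe each of Kdr, Angpt1 and Angpt2 was called higher in endoglin siRNA than in control siRNA cells. A probe each of Flt1 and Vegfa was called lower. Of the 13 member probes tested with limma, 3 were higher and 2 lower at an adjusted p under 0.05. Over all probes, 5.18% were called higher and 3.08% lower in this comparison, 8.26% in all. The median log2 ratio was 0.08 over the 13 probes and 0.02 over all probes. With the background fitted without the 10 spots, 3 member probes were higher and 4 lower, beside 8.75% and 8.06% of all probes. The added calls were the second probes of Flt1 and Vegfa. Against untreated cells, where a constant dye bias cancels, 0 of the 13 probes passed in the designed fit. Without the 10 spots Kdr, Flt1 probe 1 and Angpt2 probe 1 passed there, and Angpt1 and both Vegfa probes did not.

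**Figure D1:**
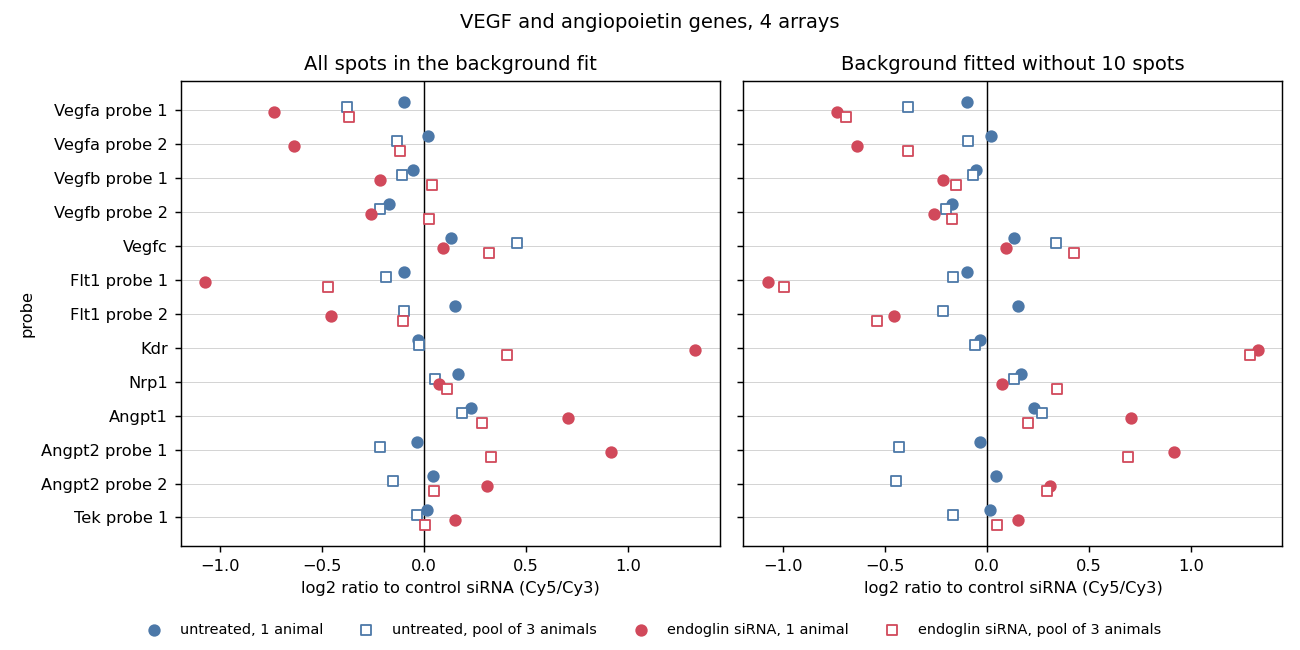
Log2 ratio of Cy5 to Cy3 for the 13 tested probes on each of the 4 arrays (blue, untreated; red, endoglin siRNA; filled circles, 1 animal; open squares, pool of 3 animals), with all spots in the background fit (left) and without the 10 disturbing spots (right). In the right panel both endoglin siRNA arrays place Kdr near 1.3 and Flt1 probe 1 near -1.0, while the untreated arrays place both genes between -0.17 and -0.03.

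Among the ligands, Vegfa had 2 probes. Probe 1 read -0.74 (1 animal) and -0.37 (pool) in endoglin siRNA cells and -0.10 and -0.38 in untreated cells. Both pooled arrays were thus at one level, and only the arrays of 1 animal separated the groups. Against control siRNA, the mean in endoglin siRNA cells was -0.55 ± 0.10 (SE, n = 2 arrays), 1.47-fold lower with a limma adjusted p of 0.0209. With median centring in place of loess it was 0.27 (adjusted p = 0.6805), where 0 of all tested probes were called and their median was 0.32. The call ended without the array of 1 animal (-0.37, adjusted p = 0.1306). Once the 10 spots were left out, the pooled arrays read -0.69 (endoglin siRNA) and -0.39 (untreated), and the mean against control siRNA was -0.71 ± 0.09 (adjusted p = 0.0021).

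Vegfa probe 2 was printed in 10 copies on each array, of which 2 were left out as outliers on the endoglin siRNA array of 1 animal. The log2 ratio averaged over copies was -0.64 and -0.12 in endoglin siRNA cells and 0.02 and -0.13 in untreated cells (1 animal and pool). Among copies of 1 array the SD ranged from 0.02 to 0.06, far below the gap between the endoglin siRNA arrays. The mean of -0.38 ± 0.12 (SE, n = 2 arrays) did not pass (limma adjusted p = 0.0936). With the RNA source as a block it passed (adjusted p = 0.0305), and without the 10 spots it was -0.51 ± 0.08 and did (adjusted p = 0.0069).

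Vegfb, the ligand of VEGFR1, did not pass with either probe. Its ratios to control siRNA in endoglin siRNA cells were -0.22 and 0.04 for probe 1 and -0.26 and 0.02 for probe 2 (1 animal and pool). The limma means were -0.09 (95% interval -0.27 to 0.09) and -0.12 (-0.30 to 0.07), with adjusted p-values of 0.5632 and 0.4485. Leaving out the 10 spots moved them to -0.18 (-0.35 to -0.02, adjusted p = 0.1170) and -0.22 (-0.38 to -0.05, adjusted p = 0.0755), which did not pass. In the designed fit untreated cells lay between -0.22 and -0.05 on both probes, within the range of the endoglin siRNA arrays.

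Vegfc had scanner signals of 136688 to 192588 in Cy5 and 32330 to 38618 in Cy3, and no array was saturated. In endoglin siRNA cells its ratio was 0.09 for 1 animal and 0.32 for the pool, a mean of 0.21 ± 0.09 (SE, n = 2 arrays) that did not pass (limma adjusted p = 0.2442). In untreated cells the ratio was 0.13 and 0.45, so both groups overlapped and the pools were higher than the single animals in both. The untreated mean of 0.29 ± 0.09 did not pass (adjusted p = 0.2095), and did with the RNA source as a block (adjusted p = 0.0337).

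The 2 tyrosine kinase receptors of VEGF-A moved in opposite directions. Kdr had a ratio of 1.33 in endoglin siRNA cells of 1 animal and 0.41 in the pool, and of -0.03 on both untreated arrays. All endoglin siRNA values were above all untreated values. The mean against control siRNA was 0.87 ± 0.18 (SE, n = 2 arrays), 1.83-fold higher with a limma adjusted p of 0.0279. Without the 10 spots the pool read 1.29, close to the single animal, and the mean was 1.31 ± 0.07, or 2.48-fold (adjusted p = 1.3e-04). The Kdr signal of 770 in Cy5 on the endoglin siRNA pool exceeded that of 405 on the untreated pool, while in Cy3 the pools read 113 and 132.

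Flt1 was measured by 2 probes. Probe 1 had ratios of -1.07 and -0.47 in endoglin siRNA cells and of -0.10 and -0.19 in untreated cells (1 animal and pool). The groups did not overlap, and the mean against control siRNA was -0.77 ± 0.13 (SE, n = 2 arrays), 1.71-fold lower with a limma adjusted p of 0.0139. Once the 10 spots were left out, the pool read -1.0 and the mean was -1.03 ± 0.07, or 2.05-fold lower (adjusted p = 3.5e-04). With median centring the mean of probe 1 was -0.13 (limma adjusted p = 0.8322). That setting called 0 of all tested probes in this comparison, with a median of 0.32 over them, so any call ended there.

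The dimmer Flt1 probe 2, with Cy5 signals of 85.0 to 445, read -0.46 and -0.10 in endoglin siRNA cells and 0.15 and -0.10 in untreated cells. Its mean of -0.28 ± 0.10 did not pass (limma adjusted p = 0.1391) and without the 10 spots was -0.50 ± 0.10 (adjusted p = 0.0118). The co-receptor Nrp1 had ratios of 0.07 and 0.11 in endoglin siRNA cells and 0.16 and 0.05 in untreated cells, which overlapped. Its mean against control siRNA was 0.09 (95% interval -0.05 to 0.24, limma adjusted p = 0.4540), and without the 10 spots it was 0.21 (0.02 to 0.40, adjusted p = 0.1329).

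**Figure D2:**
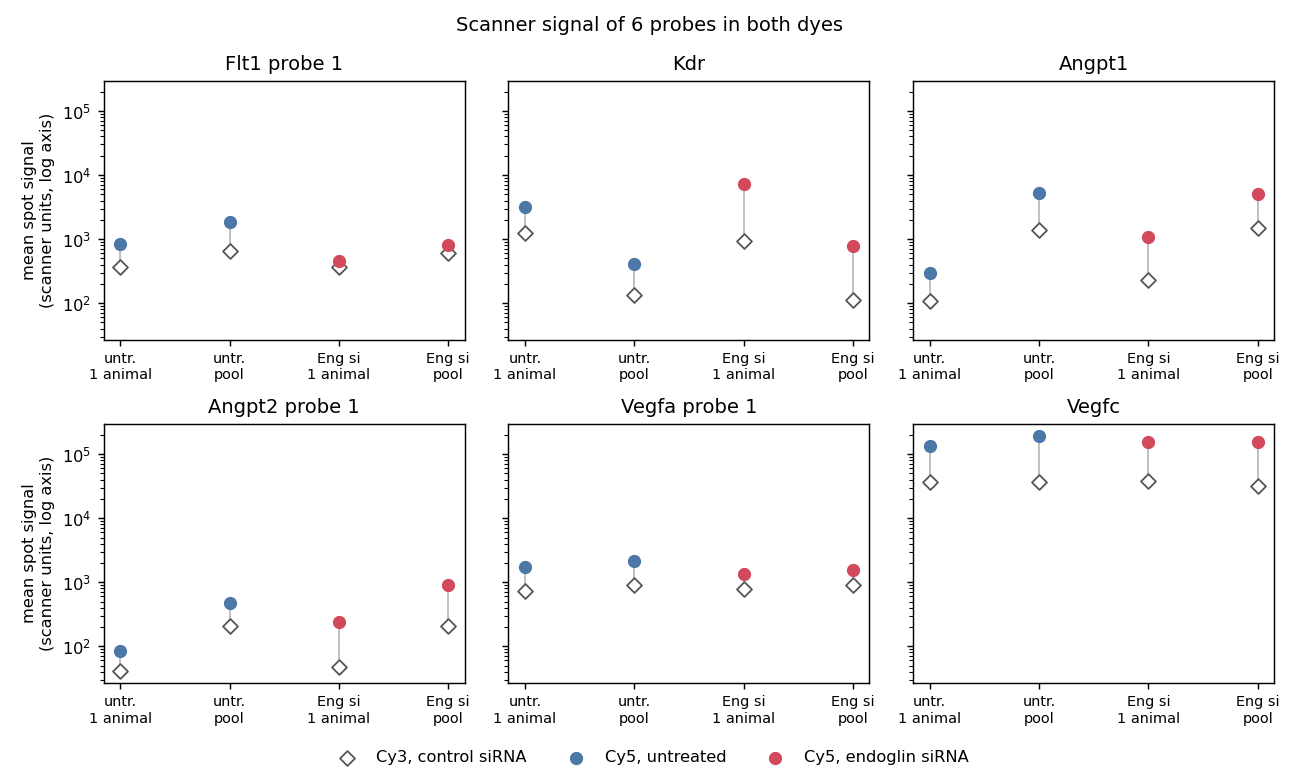
Mean scanner signal of 6 probes on each array (log axis): the filled circle is Cy5 (untreated in blue, endoglin siRNA in red) and the open diamond is Cy3, the control siRNA cells of the same array. For Kdr the Cy5 signal rises far above Cy3 on both endoglin siRNA arrays (7150 against 927, and 770 against 113), for Flt1 probe 1 the 2 dyes come close together there, and Vegfc is bright throughout.

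The promoters of Vegfa and Kdr are shown because a probe of the ligand was called lower and the receptor higher against control siRNA. They are RefSeq sequences of the assembly GRCr8, on the plus strand, ending just before the first annotated base of the gene. Capitals mark the ETS core GGAA and the GC box GGGCGG, on either strand.
Vegfa, chr9:22452604-22452853: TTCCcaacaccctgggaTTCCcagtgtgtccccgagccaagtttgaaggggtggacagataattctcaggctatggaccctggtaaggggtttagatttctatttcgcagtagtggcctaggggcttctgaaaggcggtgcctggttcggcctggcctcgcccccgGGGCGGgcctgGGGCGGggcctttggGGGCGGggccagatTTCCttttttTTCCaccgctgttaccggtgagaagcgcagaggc
Kdr, chr14:32571813-32572030: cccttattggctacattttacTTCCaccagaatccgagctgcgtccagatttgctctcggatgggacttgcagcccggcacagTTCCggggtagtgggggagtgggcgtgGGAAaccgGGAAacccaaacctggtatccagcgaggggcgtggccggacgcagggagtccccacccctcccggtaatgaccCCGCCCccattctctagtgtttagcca
The Vegfa stretch of 250 bases holds 4 ETS cores and 3 GC boxes, and the Kdr stretch of 218 bases holds 4 ETS cores and 1 GC box. An ETS core occurs in 93.2% of 33469 promoter stretches of 250 bases and in 90.7% of those of 218 bases, and a GC box in 30.5% and 27.0%. Neither stretch holds the HIF core ACGTG, the Smad box CAGAC or the TATA box TATAAA on either strand. These were found in 16.6%, 42.9% and 12.9% of stretches of 250 bases. Other spellings of these sites were not searched for, and bases further upstream were not read. Promoter entries matched 6 of the 9 genes; Angpt1, Angpt2 and Tek had none.

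Both angiopoietins had a probe called higher in endoglin siRNA cells than in control siRNA cells. Angpt1 had ratios of 0.70 in 1 animal and 0.28 in the pool, and of 0.23 and 0.19 in untreated cells. All 4 ratios were above 0, and the array of 1 animal with endoglin siRNA stood apart from the other 3. The mean against control siRNA was 0.49 ± 0.10 (SE, n = 2 arrays), 1.41-fold higher with a limma adjusted p of 0.0248. Without that array it was 0.28 and did not pass (adjusted p = 0.1308). Without the 10 spots the pooled endoglin siRNA array (0.20) was below the pooled untreated array (0.27).

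Angpt2 probe 1 had ratios of 0.92 and 0.33 in endoglin siRNA cells and of -0.03 and -0.21 in untreated cells (1 animal and pool). The groups did not overlap. The mean of 0.62 ± 0.13 (SE, n = 2 arrays) against control siRNA was 1.54-fold, with a limma adjusted p of 0.0274, and without the 10 spots it was 0.80 ± 0.11 (adjusted p = 0.0029). The call ended without the array of 1 animal (0.33, adjusted p = 0.1211). On the untreated array of 1 animal the Cy3 signal of 41.1 was not well above background, so that ratio is one of a dim spot.

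Angpt2 probe 2 read 0.31 and 0.05 in endoglin siRNA cells and 0.05 and -0.15 in untreated cells, and its mean of 0.18 ± 0.08 did not pass (limma adjusted p = 0.2706). Once the 10 spots were left out, the mean was 0.30 (adjusted p = 0.1029). Probe 3 was well above background in Cy5 on 1 array, the untreated pool, and was not tested. The probes of this gene therefore differed in brightness and in size of ratio, with probe 1 the brightest. Probe 2 was not well above background in either dye on the untreated array of 1 animal, nor in Cy3 on the endoglin siRNA array of 1 animal. Feature Extraction log2 ratios in endoglin siRNA cells were 1.59 and 0.50 for probe 2 and 2.22 and 0.78 for probe 1 (1 animal and pool). Whether the probes differed in response was not tested.

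Tek, the receptor of both angiopoietins, was dim. Probe 1 had Cy5 signals of 64.5 to 141 and was well above background in Cy5 on both pooled arrays alone, and probe 2 only on the untreated pool. The 4 ratios of probe 1 lay between -0.04 and 0.15. The endoglin siRNA mean was 0.08 (95% interval -0.08 to 0.23, limma adjusted p = 0.5620).

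Untreated cells and control siRNA cells differed in none of the 13 member probes at an adjusted p under 0.05 in limma. Over all probes, 0.784% were called. At an unadjusted p under 0.05 there were 2 member probes, Vegfc at 0.29 and Vegfb probe 2 at -0.19. Without the 10 spots 0 passed and 3 had an unadjusted p under 0.05, with 1.84% of all probes called. Kdr had a mean of -0.03 (95% interval -0.44 to 0.39), and without the 10 spots of -0.05 (-0.21 to 0.12).

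Endoglin siRNA cells against untreated cells gave 0 calls among the 13 probes in limma, where 0.100% of all probes were called. At an unadjusted p under 0.05 there were 3 member probes: Kdr, Flt1 probe 1 and Angpt2 probe 1. Once the 10 spots were left out, these 3 passed, beside 0.204% of all probes called higher and 0.526% called lower. This comparison shares its endoglin siRNA arrays with the first one, so it is no independent measurement of them.

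Kdr was 1.36 higher in endoglin siRNA than in untreated cells in 1 animal and 0.43 higher in the pool on the log2 scale. The mean of 0.90 ± 0.25 (SE, n = 2 arrays per group) had a limma adjusted p of 0.3580, which was 0.0453 with the RNA source as a block. Without the 10 spots the differences were 1.36 and 1.35, with a mean of 1.35 ± 0.10 and an adjusted p of 0.0043. For Flt1 probe 1 the differences were -0.98 and -0.28, a mean of -0.63 ± 0.18 (adjusted p = 0.3635). Once the 10 spots were left out, they were -0.98 and -0.83, with a mean of -0.90 ± 0.10 (adjusted p = 0.0110).

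Angpt2 probe 1 differed by 0.95 in 1 animal and 0.54 in the pool, a mean of 0.75 ± 0.18 (SE, n = 2 arrays per group; limma adjusted p = 0.2618). With the RNA source as a block it passed (adjusted p = 0.0134), and without the 10 spots the mean was 1.04 ± 0.15 (adjusted p = 0.0281). Vegfa probe 1 differed by -0.64 in 1 animal and 0.01 in the pool (mean -0.31, adjusted p = 0.6713), and without the 10 spots the pool differed by -0.30 (mean -0.47, adjusted p = 0.1628). Angpt1 differed by 0.47 and 0.10 (mean 0.29, adjusted p = 0.6940), and by -0.07 in the pool without the 10 spots (mean 0.20, adjusted p = 0.6958).

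**Figure D3:**
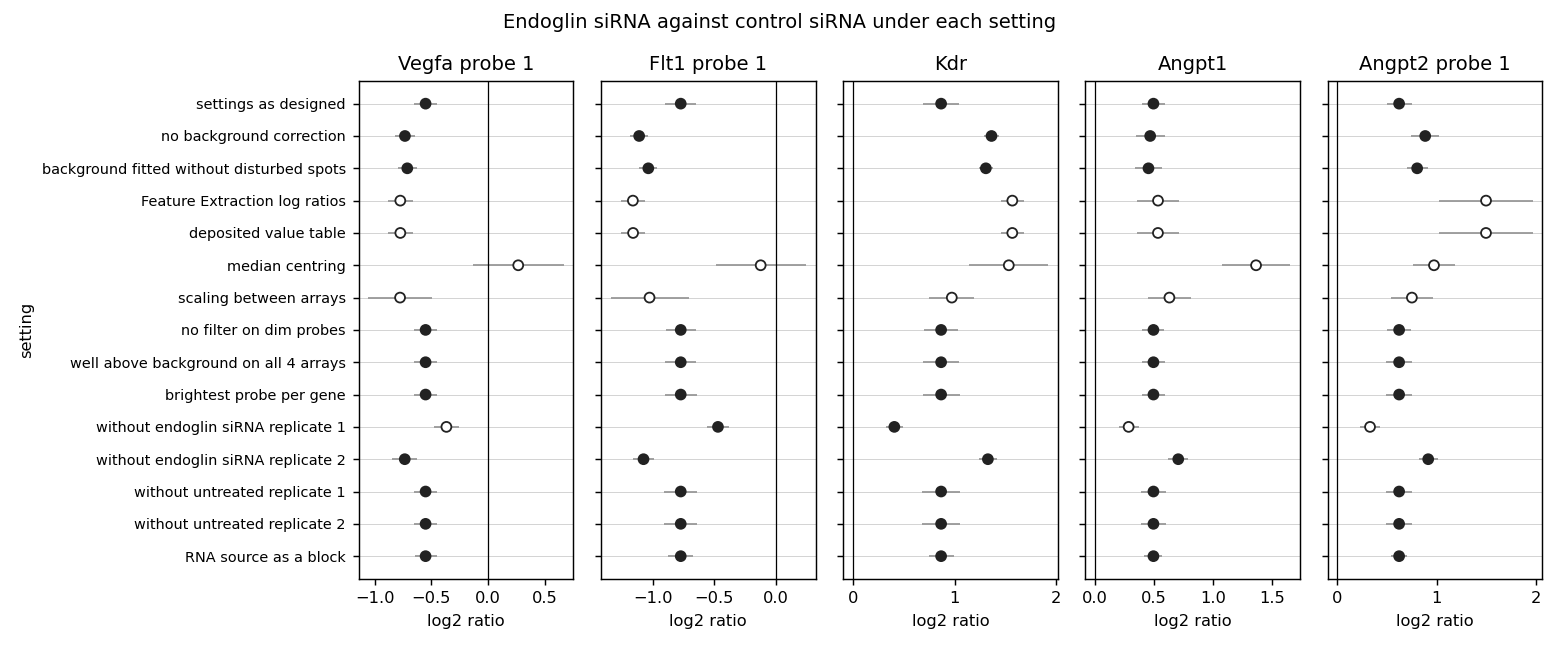
Mean log2 ratio of endoglin siRNA to control siRNA cells under each processing setting for the 5 probes that passed (bars, ± 1 SE; filled points, limma adjusted p under 0.05; open points, not). Replicate 1 is the array of 1 animal and replicate 2 the pool. Kdr and both angiopoietins stay above 0 and Flt1 probe 1 below 0 in every setting plotted, and Vegfa probe 1 crosses 0 with median centring.

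The control siRNA cells themselves had very different levels of some members in the 2 RNA sources, read in Cy3 after the arrays were normalized to each other without the 10 spots. Kdr stood at 11.11 and 10.68 (log2) in 1 animal and at 7.55 and 7.74 in the pool, 9.47-fold higher in 1 animal. Angpt1 stood at 7.75 and 8.73 in 1 animal and at 11.14 and 11.32 in the pool, 7.97-fold lower in 1 animal. Angpt2 probe 1 had Cy3 signals of 41.1 and 48.1 in 1 animal, the first not well above background, and of 207 and 208 in the pool, so no exact fold is given. The log2 difference of 3.24 for Kdr and -2.99 for Angpt1 lies outside the 1st to 99th percentile of all tested probes, -1.46 to 1.54. Flt1 probe 1 was 1.59-fold lower in 1 animal and Vegfa probe 1 1.13-fold lower. With 2 arrays for each source, and with the labels silent on whether arrays shared a control RNA, these levels are described without a test.

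**Figure D4:**
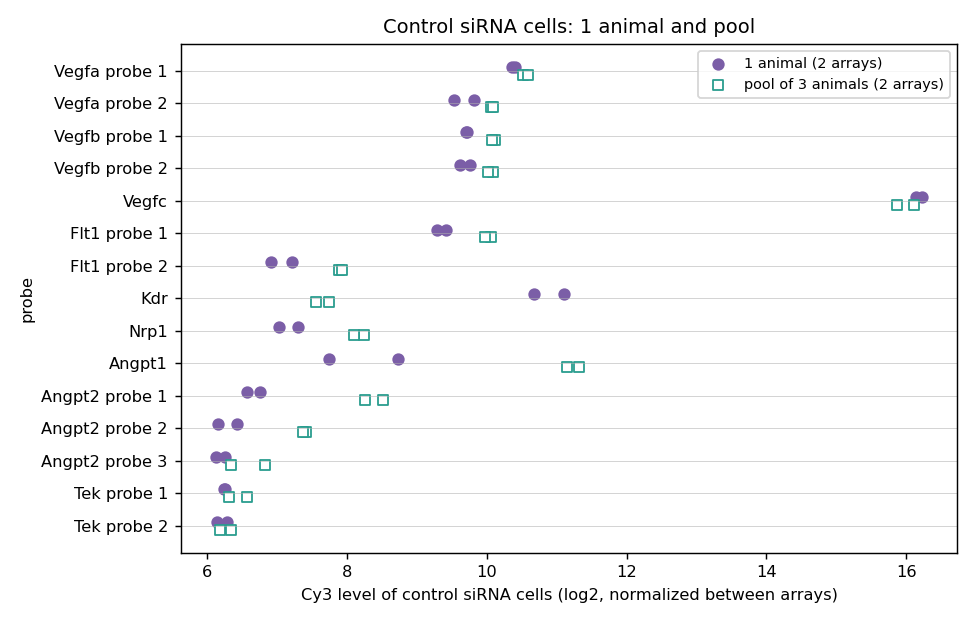
Cy3 level of control siRNA cells (log2, normalized between arrays) for the 15 member probes on the arrays of 1 animal (filled circles) and of the pool of 3 animals (open squares). Kdr lies between 10.68 and 11.11 in 1 animal and between 7.55 and 7.74 in the pool, and Angpt1 has the reverse order.

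Endothelial cells express Kdr, Flt1 and Tek strongly, and their markers were read on the same arrays. Of 18 endothelial markers 16 were on the array. In Cy5, 10 or 11 of them were well above background on 3 arrays, beside 65.7% to 70.2% of all gene spots. On the untreated pool 16 were, beside 93.3% of all gene spots. They ranged widely in Cy5: Pecam1, Stab2 and Emcn had signals of 54.9 to 255, Icam2 of 383 to 717, Erg of 82.4 to 1299 and Esam of 1551 to 4116. Egfl7 was the brightest on the pooled arrays (11572 untreated, 7102 endoglin siRNA), and its spot on the endoglin siRNA array of 1 animal was left out as an outlier. Summed over 15 markers, Cy5 signals were 13102 and 7599 in untreated cells (1 animal and pool) and 14697 and 4373 in endoglin siRNA cells. In Cy3 the sums were 4122 and 4447 for 1 animal and 2333 and 1926 for the pool. The gene Fcgr2b alone gave 8677 and 1086 of the untreated Cy5 sums and 8546 and 452 of the endoglin siRNA ones. The sums thus depend heavily on this gene and do not describe the other markers. Of 12 tested markers 0 passed between endoglin siRNA and control siRNA cells in limma, where 8.26% of all probes were called. Without the 10 spots the transcription factor Erg was lower (-0.52, adjusted p = 0.0174). In Cy3, the control siRNA cells, 5 endothelial markers were measured on all 4 arrays. The Fc receptor gene Fcgr2b, with Esam and Ramp2, was higher in 1 animal than in the pool, and Erg and Icam2 were lower. The first order was that of Kdr, and also that of 8 of 11 macrophage markers. Fcgr2b had signals of 2052 and 2284 in 1 animal and 190 and 164 in the pool, and Ramp2 of 242 and 230 against 190 and 177. The part of these cells in the Kdr levels was not tested.

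Macrophage markers, including genes of Kupffer cells, were read in the same way. Their summed Cy5 signals over 13 genes were 95025 and 47645 in untreated cells and 56057 and 15126 in endoglin siRNA cells (1 animal and pool). In Cy3, 8 of 11 macrophage markers measured on all arrays were higher in 1 animal than in the pool and 1 was lower. Cd68, for example, had 3093 and 3160 against 446 and 342. Between endoglin siRNA and untreated cells 2 of 13 were lower in limma, C1qa (-1.09) and Cd74 (-0.95), where 0.100% of all probes were called. In untreated against control siRNA cells 6 of 13 were higher, where 0.784% of all probes were called. Without the 10 spots these counts were 4 and 9, beside 0.526% of all probes called lower and 1.84% called. The part of macrophages in the values of the members was not tested. Stellate cell markers were well above background in Cy5 for 15 or 16 of 16 on each array, beside 65.7% to 93.3% of all gene spots.

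Markers of the stellate cells and of neighbouring mural cells included genes called by limma in endoglin siRNA against control siRNA. Over all probes, 5.18% were called higher and 3.08% lower in this comparison. Of 16 tested stellate cell markers 4 were higher, among them Cygb (0.76 ± 0.10) and Pdgfra (0.62 ± 0.09). The 2 lower ones were Col1a1 (-0.89 ± 0.07) and Des (-0.61 ± 0.12). Both turned positive under median centring (0.45 and 0.64), beside a median of 0.32 over all probes. In untreated cells, also against control siRNA, 3 of the 16 were higher and 1 lower. Between endoglin siRNA and untreated cells 0 of 16 passed, with or without the 10 spots. In Feature Extraction log ratios Cygb stood at 0.57 in endoglin siRNA and 0.72 in untreated cells, and Des at -0.55 and -0.74. Of 9 smooth muscle, pericyte and portal markers 2 were lower in endoglin siRNA than in control siRNA cells. The smooth muscle myosin Myh11 stood at -1.63 ± 0.18 (adjusted p = 0.0044; -1.57 in 1 animal and -1.70 in the pool). The pericyte gene Rgs5 stood at -1.0 ± 0.17 (adjusted p = 0.0147; -1.42 and -0.58). Cspg4 was lower too without the 10 spots (-1.18, adjusted p = 0.0043). In untreated against control siRNA cells 0 of 9 passed. Between endoglin siRNA and untreated cells 0 of 9 passed in the designed fit, and 1 was lower without the 10 spots. The Myh11 signal was 2994 in Cy5 and 2709 in Cy3 on the untreated pool, and 1721 and 2673 on the endoglin siRNA pool. The part of stellate and mural cells in the values of the members was not tested. Fewer cells of a type and less RNA per cell cannot be told apart in these bulk samples.

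The other genes of the pathway were read by their brightest probe. Of 40 tested genes, 2 were higher and 6 lower in endoglin siRNA than in control siRNA cells by limma, beside 5.18% and 3.08% of all probes. Their median log2 ratio was -0.07, beside 0.02 over all probes. The ligand Vegfd was lower at -0.86 ± 0.15 (adjusted p = 0.0161; -1.23 in 1 animal and -0.49 in the pool), Akt1 at -0.55 ± 0.08, the kinase Sphk1 at -0.51 ± 0.11 (-0.86 without the 10 spots) and the MAP kinase kinase Map2k1 at -0.47 ± 0.07. Higher were the calcineurin subunit Ppp3ca at 0.37 ± 0.06 and the adaptor Nck1 at 0.35 ± 0.08. With median centring the median over all probes was 0.32. Vegfd kept its sign there, and the other 5 lower genes, Akt1, Sphk1, Map2k1, Ptk2 and Src, had positive values (0.00 to 0.75). Without the 10 spots, 3 were higher and 13 lower, beside 8.75% and 8.06% of all probes. Pgf, a ligand of VEGFR1, was then lower at -0.60 (adjusted p = 0.0034), against -0.35 (adjusted p = 0.0769).

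In untreated cells Akt1 alone of the 40 was called, at -0.51 ± 0.08 against control siRNA (limma adjusted p = 0.0359). The kinase gene Prkcb was also called without the 10 spots, at 1.07 (adjusted p = 0.0106) against 0.72 (adjusted p = 0.1077). Between endoglin siRNA and untreated cells Akt1 differed by -0.04 (adjusted p = 0.9813). Against control siRNA, Src and Ptk2 stood at -0.30 and -0.29 in untreated cells, without passing, and at -0.30 and -0.32 in endoglin siRNA cells. Sphk1, Map2k1 and Vegfd stood at -0.25, -0.12 and -0.06 in untreated cells. Between endoglin siRNA and untreated cells 0 of 40 passed, with Vegfd at -0.80 ± 0.21 (adjusted p = 0.3233) and, without the 10 spots, at -1.0 (adjusted p = 0.0277).

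Vegfa is a target of the hypoxia factor HIF, whose subunit genes Hif1a (-0.01, limma adjusted p = 0.9660) and Epas1 (-0.23, adjusted p = 0.0812) did not pass against control siRNA in the designed fit. Epas1 was lower without the 10 spots, at -0.36 (adjusted p = 0.0152). Of 21 tested HIF targets, 1 was higher and 5 lower in endoglin siRNA than in control siRNA cells, with a median of -0.21, where 5.18% of all probes were higher and 3.08% lower. With the 10 spots left out, 1 was higher and 10 lower with a median of -0.28, beside 8.75% and 8.06% of all probes. In the designed fit Ddit4 stood at -0.97 ± 0.21, with -1.53 in 1 animal and -0.40 in the pool, and the glycolytic genes Ldha at -0.59 ± 0.06 and Aldoa at -0.51 ± 0.06. The prolyl hydroxylase gene P4ha1 stood at -0.32 and Pgk1 at -0.28. With median centring, where the median over all probes was 0.32, Ddit4 kept its sign and these other 4 turned positive (0.64 to 0.94). The vasodilator gene Adm was higher at 0.84 ± 0.08 (adjusted p = 0.0036), and in untreated cells at 0.60 ± 0.08 (adjusted p = 0.0286). Of the 5 lower genes, untreated cells had Ddit4 at -0.41, Ldha at -0.30, Aldoa at -0.28 and Pgk1 at -0.20 against control siRNA. P4ha1 stood at 0.02 there, and none of the 5 passed. Between endoglin siRNA and untreated cells 0 of 21 HIF targets passed, with or without the 10 spots.

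For the 5 members with a called probe, the genes whose 4 array ratios lay nearest among 12122 gene symbols were found by Euclidean distance on the log2 scale. Nearest to Kdr were Cadps (0.27), Sncg and Mmp10, and to Flt1 the receptor Fgfr1 (0.12), Cd248 and Mfap4. Nearest to Vegfa were Pik3ip1 (0.11), Bcat1 and Dmpk. Nearest to Angpt1 were Igfbp3 (0.09), Gpr37 and Mrc2, and to Angpt2 Akr1b8 (0.11), Serpinb7 and Bmp2. These distances were taken in the designed fit, rest on 4 arrays, and describe likeness of pattern alone.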

How the data were processed

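Of 4 two-colour arrays, read from 1 slide in 1 scan, Cy5 carried the test cells and Cy3 the control siRNA cells, per the labels. Per the file headers, the authors used version 9.5.1.1 of Agilent Feature Extraction to read the spots. The deposited mean and background signals are linear intensity values, and the deposited log ratios of that software and the value table are log10 ratios. Per the labels, Rosetta Resolver was also used. The array annotation's genome build was not given in the sources used here. Values in that deposited table follow Cy5 over Cy3 for endoglin siRNA and the inverse for untreated cells.

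Mean signals were background-corrected by normexp with an offset of 50 and normalized within arrays by loess, from which log2 ratios were computed (R 4.3.3 and limma 3.58.1). Controls had weight 0 in loess, flagged spots were left out, and the spots of a probe were averaged. Tested were probes that 2 or more arrays showed well above background in either dye, with a usable spot on all 4. The fit had 1 mean per group and Benjamini-Hochberg adjustment at 0.05 over all probes. The normexp fit was repeated without spots whose background-subtracted signal was below -100, a limit chosen after seeing the data. The fit was tested on simulated data. SE and p-values rest on limma's moderated variance, with 2 residual degrees of freedom of the probe and 5.51 prior ones drawn from all tested probes. They cover the spread of the ratios between arrays, which within a group differ in RNA source in both dyes. No array set control RNA against control RNA, so the control's own spread was not measured separately. Whether the pools included the single animal is not stated in the labels.

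Names were updated with RefSeq genes of GRCr8: of the tested probes 8284 matched through an accession, 4504 through a symbol and 3007 through a synonym, while 14065 kept the file's name. A list gene was represented by its brightest tested probe. Members and gene lists were chosen with earlier results of these data known. Named were all member probes, the list genes that passed (at most 6 per list, or the 2 largest), the 3 nearest genes of each called member, and Eng. List genes named beyond this rule, and the marker genes, were chosen after their values were seen.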

Additional observations from a re-analysis of the deposited data

How the results depend on the processing

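The number of probes called by limma depended on the processing. Between endoglin siRNA and control siRNA it was 2467, against 5572 without background correction, 5018 with the background fitted without the 10 spots, 4770 with the RNA source as a block, and 1118 (without the endoglin siRNA array of 1 animal) to 3388 with 1 array left out, with 1575 without either untreated array. For untreated against control siRNA it was 234, against 672, 549 and 1402 in the same order, 421 without the filter on dim probes, and 0 (without the untreated pool) to 989 (without either endoglin siRNA array) with 1 array left out, with 57 without the untreated array of 1 animal. For endoglin siRNA against untreated it was 30, against 202, 218 and 379, 57 without the filter, and 0 (without the untreated pool) to 511 (without the endoglin siRNA pool) with 1 array left out, with 6 and 58 without the untreated and the endoglin siRNA array of 1 animal. The Feature Extraction log ratios, the deposited value table, median centring and scaling between arrays each gave 0 calls in all 3 comparisons. At an unadjusted p under 0.05 they gave 8596, 8594, 6948 and 1728 probes for endoglin siRNA against control siRNA, 79 to 4120 for untreated against control siRNA and 301 to 3248 for endoglin siRNA against untreated, and without the untreated pool the 0 calls of the other comparisons stood beside 2328 and 1424. The cause was not tested. Median centring left the median of the tested probes at 0.33 and -0.16 on the untreated arrays and 0.35 and 0.25 on the endoglin siRNA arrays, and Vegfa probe 1 against control siRNA turned to 0.27. Of the 14 alternatives, Kdr and Flt1 probe 1 each lost their call in 4, Angpt1 and Angpt2 probe 1 in 5, and Vegfa probe 1 in 4, beside its turn of sign. Any call had to end in the 4 settings that gave 0 calls, and Kdr and Flt1 probe 1 lost theirs in no other. Kdr ranged from 0.41 to 1.57 and Flt1 probe 1 from -1.16 to -0.13. The labels give no replicate numbers but name the RNA source, which served as the block. Across probes, Cy3 levels correlated at 0.990 and 0.994 within a source and lower in all 4 pairs of different source (lowest 0.972). With the block, 4 member results gained a call. Signals near background limit Tek, Angpt2 and Flt1 probe 2.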
